A study of Homo sapiens with 34 samples.

Results

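The comparison is of RWPE cells on amorphous calcium phosphate (ACP) with RWPE cells on tissue culture plastic, both in the line's control medium. Its members are the 2 libraries labelled ACP-coating with control media and the 2 labelled plastic with control media, 4 of the 34 RNA-seq libraries of the series, which covers 4 human prostate cell lines. RWPE cells are prostate epithelium that does not form tumours, and ACP is a mineral coating that stands in for bone. All RWPE groups share the same culture base, a serum-free keratinocyte medium with epidermal growth factor (EGF) and bovine pituitary extract. The ACP libraries are labelled day 4 and the plastic libraries as continuous culture, while the treatment protocol has both passaged and grown for 4 days with a change of medium on day 2. A further 3 RWPE libraries, from ACP with androgen (labelled 100 mM, named DHT in the titles and testosterone in the condition labels, in medium that the protocol describes as holding stripped serum), helped to estimate the spread and are given beside the members. The labels do not say whether replicates came from separate cultures, so the p-values measure only the spread between these samples, which may be technical.

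Prostate epithelium has a basal layer, which holds keratins 5 and 14 and the transcription factor p63, and a luminal layer, which secretes prostate-specific antigen. Basal cells and keratinocytes in culture rely on EGF receptor signalling, which runs through ERK to ETS factors, immediate early genes and its own feedback inhibitors. When such cells leave the proliferative state they can switch on squamous genes such as the S100A8/S100A9 pair, small proline-rich proteins and suprabasal keratins. Contact with the surface is read by integrins and focal adhesions, and the co-activator YAP links adhesion and tension to transcription.

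The line matched the basal part of its label. KRT5, a basal keratin, lay at 6559 and 7039 CPM (read counts scaled by library size) on plastic and at 9238 and 7612 CPM on ACP. Its partner KRT14 lay at 2322 and 2617 CPM on plastic and at 4861 and 3972 CPM on ACP, and TP63, which encodes p63, at 186 and 162 CPM on plastic and at 186 and 207 CPM on ACP. None of the 3 passed the test between the surfaces (adjusted p = 0.684, 0.474 and 0.696, edgeR). KLK3, which encodes prostate-specific antigen, was low, with 6.98 and 17.3 CPM on plastic and 7.75 and 5.59 CPM on ACP (adjusted p = 0.294). Of 14 basal genes tested, only KRT15 was called, higher on ACP.

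Total counts were 38184771 and 40368069 on plastic, 31486379 and 20575779 on ACP and 19657812 to 23539969 on ACP with androgen. Log2 CPM of the pair on plastic correlated across genes with r = 0.996 and that of the pair on ACP with r = 0.994, where genes are not independent replicates. The library of plastic replicate 1 stood apart from the others in pancreatic transcripts. It held 439 reads of PRSS1, 253 of CPA1, 256 of PNLIP, 216 of CTRB1 and 25 of INS, digestive enzymes and a hormone of the pancreas, and each of the other 6 RWPE libraries held 0 reads of these 5 genes. Both plastic libraries also held transcripts of liver that were at or near 0 on ACP, given with the falls.

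Of 14297 genes tested with edgeR's quasi-likelihood F test, 600 (4.2%) passed a Benjamini-Hochberg adjusted p of 0.05. Of these, 410 (2.87%) were higher on ACP with a median log2 fold change of 1.21, and 190 (1.33%) were lower with a median of -1.37. The median over all genes tested was 0.03. A fit that leaves out 1 of the 4 compared libraries has 1 library in a group, so its count of calls cannot be set beside the 600. Log2 fold changes in those fits ran from -2.975 to -2.83 for CDH4 and from 2.97 to 4.71 for CXCL14. In a fit of the 4 compared libraries alone, 4791 genes passed. CA9 was called in each fit that left out 1 library. Every other call between the surfaces was lost in 1 or more of these fits, where replication was lost too. Fold changes and their standard errors (SE) refer to ACP over plastic unless stated, and CPM were scaled by library size with TMM factors over the 7 RWPE libraries.

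CA9, the 1 gene called whichever library was left out, encodes a membrane carbonic anhydrase that helps to set pH outside the cell and is a classic target of the hypoxia-inducible factors. It lay at 1.25 and 1.86 CPM on plastic and at 32.2 and 25.5 CPM on ACP. On ACP with androgen it lay at 15.95, 23.4 and 13.8 CPM, so all 5 ACP libraries were above both plastic libraries. The 3 androgen libraries lay above both plastic libraries for 353 of the 410 genes called higher. Here and below, this count is not independent of the calls, which used the same plastic libraries. The share over all genes tested was not counted. The rise was 18.5-fold (log2 fold change 4.21 ± 0.31 SE, adjusted p = 0.000725), with log2 values of 3.95 to 4.52 when each compared library was left out. Of 26 hypoxia and glycolysis genes tested, 2 (7.69%) were higher, beside 2.87% of all genes tested, 0 were lower and the median log2 was 0.38. The second called member, P4HA1, a collagen prolyl hydroxylase subunit, went from 26.8 and 26.1 to 43.8 and 47.9 CPM (log2 0.79 ± 0.17 SE, adjusted p = 0.0291).

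The promoters printed here are those of CA9 and S100A9 among the rises with the lowest p and that of DUSP6 among the falls, to show what the sequence before each start holds. Each is the 250 bases before the annotated start in RefSeq (GRCh38.p14), 5′ to 3′ on the gene's strand. Capitals mark matches, on either strand, to ACGTG (the core bound by hypoxia-inducible factors), TGANTCA (an AP-1 form) or CCGGAAG (an ETS form).
CA9, chr9:35673678-35673927, plus strand: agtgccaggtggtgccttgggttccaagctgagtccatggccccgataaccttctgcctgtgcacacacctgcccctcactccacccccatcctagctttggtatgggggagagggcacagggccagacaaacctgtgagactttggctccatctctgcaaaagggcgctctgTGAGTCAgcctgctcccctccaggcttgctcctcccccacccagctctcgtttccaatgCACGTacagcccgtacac
S100A9, chr1:153357604-153357853, plus strand: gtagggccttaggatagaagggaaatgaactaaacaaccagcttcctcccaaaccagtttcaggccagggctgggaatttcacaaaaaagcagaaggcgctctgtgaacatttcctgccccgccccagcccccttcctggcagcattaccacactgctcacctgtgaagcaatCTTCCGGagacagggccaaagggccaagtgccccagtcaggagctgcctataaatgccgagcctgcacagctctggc
DUSP6, chr12:89352502-89352751, minus strand: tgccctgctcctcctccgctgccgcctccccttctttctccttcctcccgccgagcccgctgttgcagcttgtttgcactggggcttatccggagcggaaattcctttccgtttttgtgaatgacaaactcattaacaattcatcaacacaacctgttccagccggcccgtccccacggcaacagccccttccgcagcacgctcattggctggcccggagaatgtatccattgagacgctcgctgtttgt
The CA9 window held 1 hypoxia core, CACGT on the printed strand, beginning 18 bases before the start, and 1 AP-1 form, TGAGTCA, beginning 77 bases before it. The S100A9 window held 1 ETS form and the DUSP6 window none of the 3. Among 35116 RefSeq promoter windows of the same length, 18.5% held the hypoxia core, 6.57% the AP-1 form and 8.52% the ETS form. These matches are letters in a window and not measured binding sites.

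Of 30 squamous differentiation genes on the list, 26 passed the filter on low counts. Of these, 8 (30.8%) were called higher on ACP, beside 2.87% of all genes tested, 0 lower and 18 did not pass. The median log2 was 1.53 beside 0.03 over all genes. The tested members all had a log2 fold change above 0, and the other 4 were too low to test, so the count does not cover the whole list. In bulk RNA, more cells of a squamous state and more RNA per cell cannot be told apart.

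S100A9 encodes a subunit of calprotectin, an antimicrobial protein of stressed epithelium that binds calcium and zinc. It lay at 11.8 and 17.7 CPM on plastic, 98.0 and 94.0 CPM on ACP, and 124, 142 and 95.5 CPM on ACP with androgen (log2 2.70 ± 0.26 SE, adjusted p = 0.00191). Its partner S100A8 lay at 1.93 and 4.18 CPM on plastic and at 31.6 and 31.3 CPM on ACP, a 10.3-fold rise (log2 3.36, adjusted p = 0.0057). When each compared library was left out, the log2 of S100A8 ran from 2.91 to 4.02. For both genes the ACP libraries lay above both plastic libraries, as they did for 35.2% of all genes tested. The suprabasal keratin KRT10 rose from 45.8 and 48.2 CPM to 139 and 114 CPM (log2 1.42 ± 0.22 SE, adjusted p = 0.0109). The cornified envelope precursors SPRR1A and SPRR1B, the protease inhibitor SERPINB3, the calmodulin-like CALML5 and the desmosomal cadherin DSG1 were the remaining called members. DSG1 had 1 read in each plastic library and 32 and 23 reads on ACP.

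Some rises were high on ACP in control medium and not, or less, in most libraries on ACP with androgen. Examples are KRT15 and PI3, which are not on the squamous list, and SPRR1B, which is. S100A9 and KRT10 were not of this kind, and KRT10 lay at 174, 141 and 114 CPM with androgen. KRT15, a keratin of basal and hair follicle stem cells, lay at 21.2 and 27.6 CPM on plastic and at 217 and 192 CPM on ACP (log2 3.07 ± 0.63 SE, adjusted p = 0.0272). With androgen it lay at 46.2, 140 and 24.1 CPM, and 1 of these libraries lay between the plastic libraries. PI3, the elastase inhibitor elafin, lay at 13.2 and 15.9 CPM on plastic, 99.0 and 84.8 CPM on ACP and 17.8, 92.8 and 23.1 CPM with androgen. In both genes the spread over the androgen libraries was wider than that over either pair. SPRR1B had the same order, with 7.27 and 10.5 CPM on plastic, 28.0 and 27.0 CPM on ACP and 8.57, 22.04 and 8.61 CPM with androgen. The difference between androgen and control medium is not tested here.

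The gap junction genes GJB2 and GJB6, whose connexins 26 and 30 couple differentiating keratinocytes, were the only called members among 17 junction genes tested. They were 11.8% of the list, beside 2.87% of all genes tested called higher, and the median log2 was 0.13. GJB6 went from 5.44 and 6.07 CPM to 54.9 and 56.0 CPM, a 9.63-fold rise (adjusted p = 0.00794). GJB2 went from 23.4 and 29.5 CPM to 139 and 148 CPM, a 5.43-fold rise (adjusted p = 0.0125). Both were above plastic in all 3 androgen libraries, GJB6 at 9.82 to 33.6 CPM and GJB2 at 33.97 to 96.9 CPM. So were 353 of the 410 genes called higher.

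**Figure D1:**
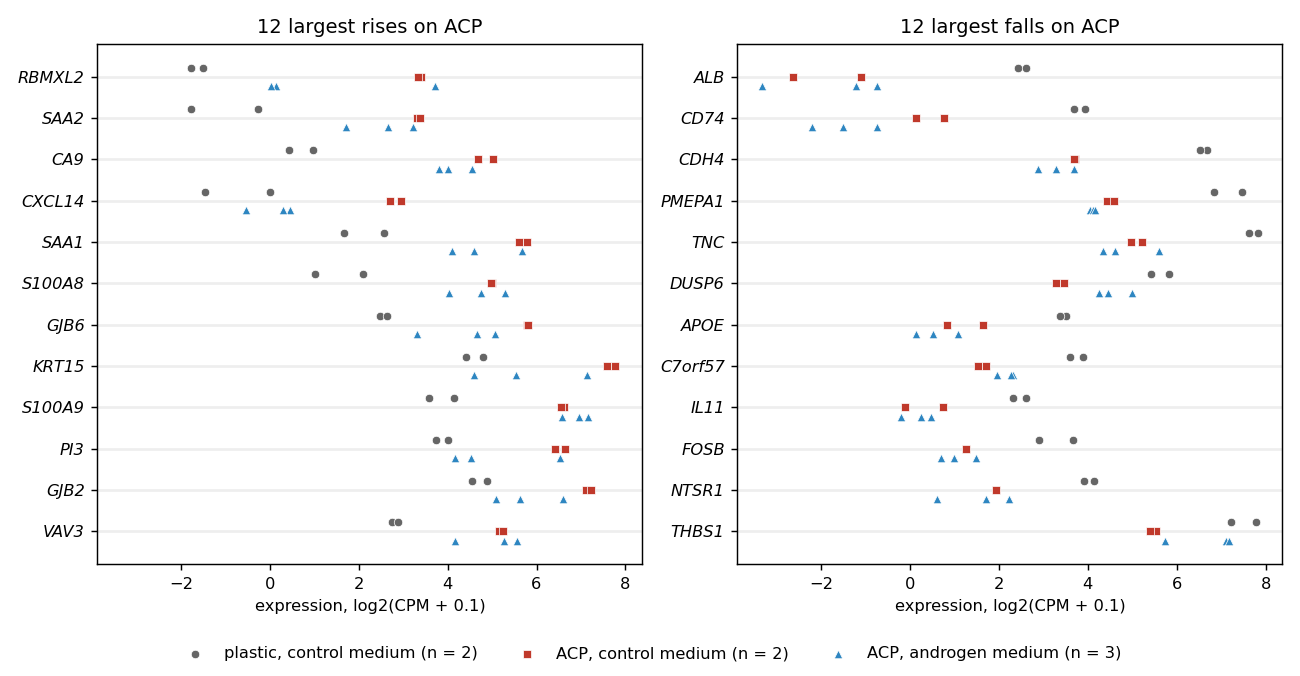
Expression of the 12 largest rises and 12 largest falls on ACP in RWPE, on the log2(CPM + 0.1) scale, with 1 point per library for plastic in control medium (n = 2), ACP in control medium (n = 2) and ACP with androgen (n = 3). The red squares and grey circles do not overlap for any gene, which the choice of genes required, while the androgen libraries of RBMXL2, KRT15, PI3 and THBS1 spread over a wide range.

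Targets of NF-kappaB and cytokines, which respond to inflammatory signals, held 6 higher and 0 lower calls among 21 tested, with a median log2 of 0.67. The higher calls were 28.6% of those tested, beside 2.87% of all genes tested. SAA1 and SAA2 encode serum amyloid A, an acute-phase protein made by epithelia as well as by the liver. SAA1 lay at 3.08 and 5.86 CPM on plastic and at 55.5 and 48.9 CPM on ACP, an 11.7-fold rise (log2 3.54 ± 0.48 SE, adjusted p = 0.00794). SAA2 lay at 0.193 and 0.736 CPM on plastic and at 9.89 and 10.3 CPM on ACP (log2 4.42 ± 0.58 SE, adjusted p = 0.00705), with a log2 of 3.77 without plastic replicate 1 and 5.67 without plastic replicate 2. The pair has near-identical sequences, so how reads were divided between SAA1 and SAA2 is uncertain. C3, the central complement component, went from 20.8 and 14.7 CPM to 75.8 and 64.6 CPM (log2 1.99 ± 0.21 SE, adjusted p = 0.00379). BIRC3, an inhibitor of apoptosis, went from 19.7 and 25.0 CPM to 89.0 and 118 CPM (log2 2.21 ± 0.25 SE, adjusted p = 0.00415). NFKBIA, the inhibitor that NF-kappaB induces to restrain itself, went from 50.7 and 53.8 CPM to 122 and 117 CPM (adjusted p = 0.00949), and the interleukin-1 antagonist IL1RN from 11.5 and 12.3 CPM to 24.6 and 24.9 CPM. All 3 androgen libraries lay above both plastic libraries for each of the 6 genes, as for 353 of the 410 genes called higher. None of 24 interferon-stimulated genes was called in either direction (median log2 0.14), which says little beside 4.2% called over all genes tested. Of 12 genes of antigen presentation by class I molecules only B2M was called (8.33%), going from 496 and 460 CPM to 1017 and 1129 CPM.

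Further rises by size were CXCL14, a chemokine of epithelium, from 0.265 and 0.897 CPM to 7.69 and 6.41 CPM (log2 3.59 ± 0.51 SE, 2.97 without plastic replicate 1 and 4.71 without plastic replicate 2), and VAV3, a guanine nucleotide exchange factor, from 6.60 and 7.31 CPM to 35.5 and 38.1 CPM (log2 2.40 ± 0.37 SE). CXCL14 in the androgen libraries, at 0.591 to 1.28 CPM, overlapped plastic, and VAV3, at 17.7 to 47.4 CPM, lay above it. By p, MYEOV2, which encodes a small subunit of the COP9 signalosome, went from 12.7 and 14.7 CPM to 38.5 and 37.9 CPM (adjusted p = 0.00459), and the uncharacterised LOC100506100 from 2.02 and 1.63 CPM to 8.80 and 9.53 CPM (adjusted p = 0.00415).

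Among smaller groups, MT1X and MT1F were called higher of 9 metallothionein and zinc genes tested (22.2%, beside 2.87% of all genes tested). MT1X, a metal-binding protein, went from 76.8 and 106 CPM to 331 and 311 CPM (log2 1.81 ± 0.33 SE). WNT4, a secreted ligand, went from 10.1 and 9.06 CPM to 44.0 and 37.97 CPM (log2 2.10 ± 0.32 SE). It and LGR4 were the called members of 16 Notch and Wnt genes (12.5%). ID1 and ID3, inhibitors of differentiation factors that BMP signals induce, rose from 143 and 276 CPM to 593 and 538 CPM and from 39.4 and 69.2 CPM to 191 and 166 CPM. Each ACP library in control medium lay above both plastic libraries for these genes, as for 35.2% of all genes tested.

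**Figure D2:**
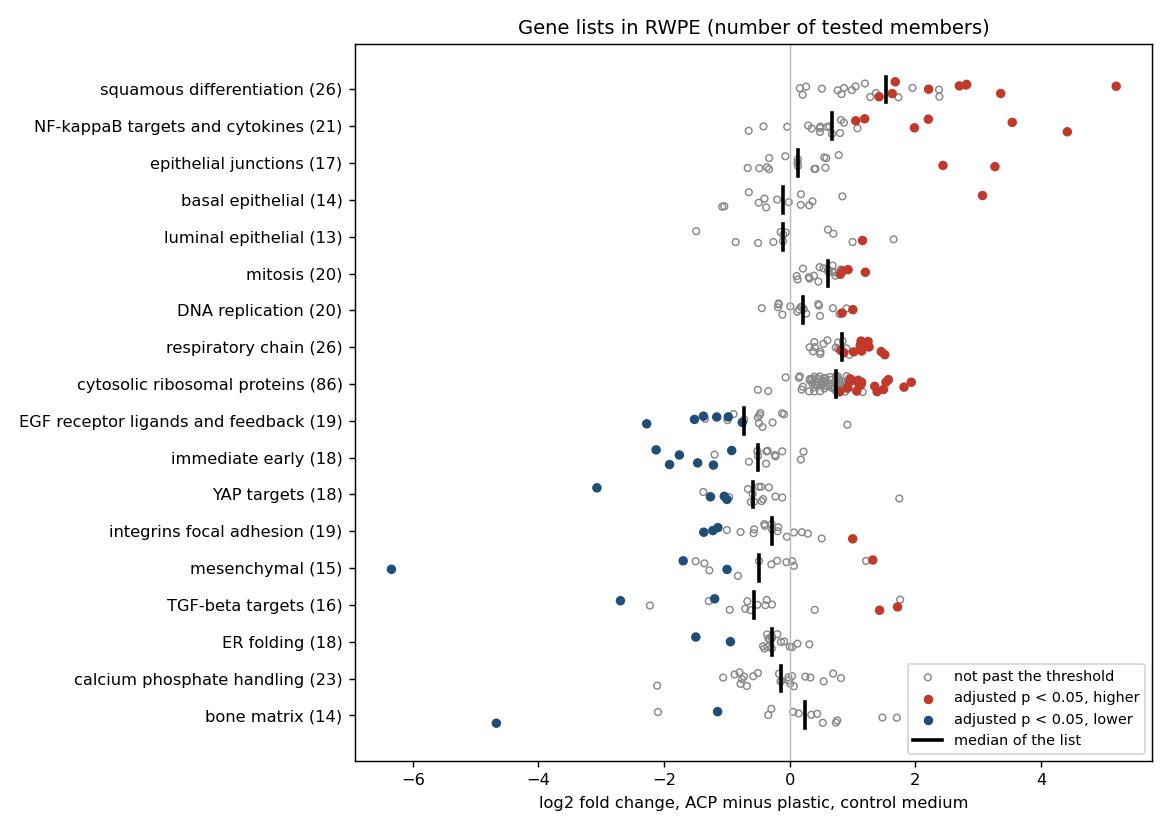
Log2 fold change, ACP minus plastic in control medium, of each tested member of 18 gene lists, with filled points for members past an adjusted p of 0.05 and a black bar for the list's median. All called squamous, NF-kappaB, mitosis, respiratory chain and ribosomal genes lie right of 0, and all called EGF receptor, immediate early and YAP genes lie left of it.

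Of 19 EGF receptor ligands and feedback genes of its pathway tested, 6 (31.6%) were called lower on ACP, beside 1.33% of all genes tested. None was called higher and 13 did not pass, with a median log2 of -0.72. The ligand EPGN had a log2 of 0.92 (adjusted p = 0.0987). DUSP6, the phosphatase that ERK signalling induces against itself, lay at 56.5 and 43.1 CPM on plastic and at 9.67 and 10.9 CPM on ACP, a 4.84-fold fall (log2 -2.28 ± 0.26 SE, adjusted p = 0.00415). The ETS factors ETV5 and ETV4, which are induced by ERK, fell from 63.8 and 57.3 CPM to 20.9 and 21.4 CPM and from 51.4 and 60.1 CPM to 23.8 and 19.2 CPM. Of the ligands, HBEGF fell from 39.1 and 28.8 CPM to 16.1 and 14.2 CPM (adjusted p = 0.0481), EREG from 59.5 and 48.5 CPM to 24.1 and 30.8 CPM (adjusted p = 0.0473) and AREG from 27.4 and 25.0 CPM to 16.2 and 14.8 CPM (adjusted p = 0.0361). Both ACP libraries in control medium lay below both plastic libraries for each of the 6, as they did for 31.9% of all genes tested. The androgen libraries stood differently by gene: AREG, at 29.4 to 33.6 CPM, lay above both plastic libraries, EREG, at 48.0 to 75.8 CPM, reached above and slightly below them, and DUSP6, at 18.8 to 31.8 CPM, lay between the other groups.

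Immediate early genes, transcription factors switched on within minutes of growth factor or serum stimulation, showed 6 lower and 0 higher calls among 18 tested (median log2 -0.51). The lower calls were 33.3% of those tested, beside 1.33% of all genes tested. FOSB lay at 7.39 and 12.6 CPM on plastic and at 2.29 and 2.29 CPM on ACP (log2 -2.13 ± 0.35 SE, adjusted p = 0.0124). NR4A1, a nuclear receptor, fell from 4.81 and 9.73 CPM to 2.39 and 1.42 CPM (log2 -1.91, and -1.32 without plastic replicate 2), and the ERK-responsive IER3 from 131 and 91.1 CPM to 33.996 and 31.6 CPM (adjusted p = 0.0129). The remaining calls were EGR1, FOSL1 and JUN. For FOSB and NR4A1 all 3 androgen libraries were also below both plastic libraries, as for 185 of the 190 genes called lower. That count too is not independent of the calls, which used the same plastic libraries. For IER3, 1 androgen library, at 105 CPM, lay between the plastic libraries.

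**Figure D3:**
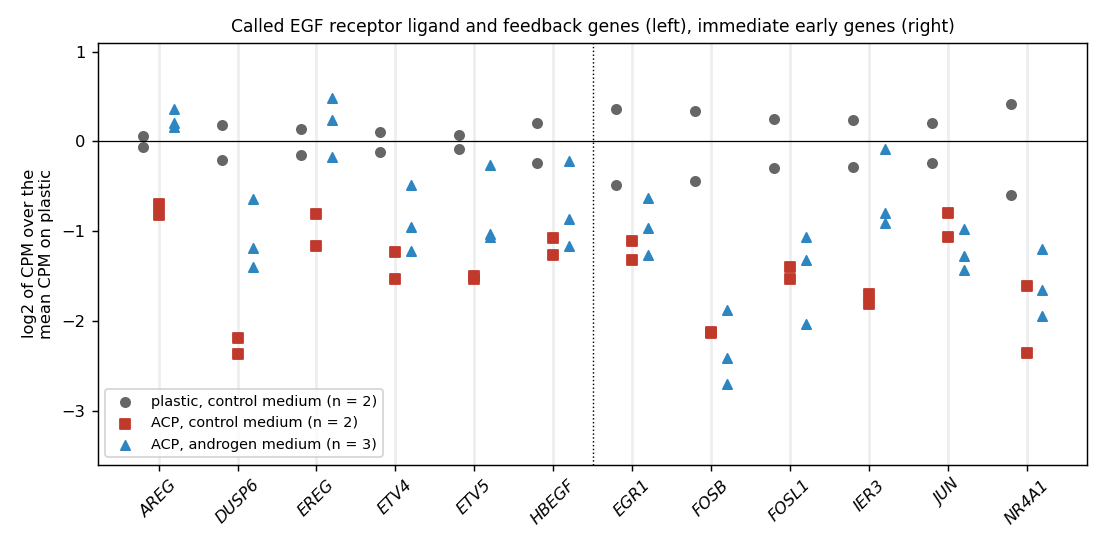
Log2 ratio of each library's CPM to the mean CPM on plastic for the 6 called EGF receptor ligand and feedback genes and the 6 called immediate early genes in RWPE (plastic n = 2, ACP in control medium n = 2, ACP with androgen n = 3). The ACP libraries in control medium lie below both plastic libraries for all 12 genes, while AREG and EREG with androgen lie around or above the plastic level.

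Lists of adhesion and tension genes held lower calls too, 22.2% of YAP targets and 15.8% of integrin and focal adhesion genes, beside 1.33% of all genes tested. Among 18 YAP targets tested, 4 were called lower and 0 higher (median log2 -0.58): AMOTL2, which restrains YAP, fell from 301 and 363 CPM to 172 and 151 CPM, the receptor kinase AXL from 146 and 130 CPM to 77.1 and 60.8 CPM, and the ectonucleotidase NT5E from 15.4 and 19.7 CPM to 6.82 and 7.83 CPM. CTGF, a matricellular protein, was the fourth, from 0.987 and 3.29 CPM to 0.341 and 0.137 CPM, with a log2 of -3.07 that ran from -3.94 without ACP replicate 1 to -1.97 without plastic replicate 2. Among 19 integrin and focal adhesion genes, FLNA, PXN and ITGA3 were lower and ITGB8 was higher (median log2 -0.29). FLNA, an actin crosslinker, fell from 1171 and 1173 CPM to 507 and 401 CPM (log2 -1.37 ± 0.26 SE, adjusted p = 0.0207), and PXN, the focal adhesion scaffold paxillin, from 625 and 642 CPM to 283 and 260 CPM (log2 -1.22 ± 0.19 SE, adjusted p = 0.0109). ITGB8 rose from 6.76 and 7.01 CPM to 12.5 and 15.2 CPM. For FLNA, PXN and ITGA3 the androgen libraries lay lower still, at 155 to 271 CPM, 163 to 208 CPM and 228 to 376 CPM.

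The falls with the lowest p were of single genes in other roles. CDH4, the neural cadherin R-cadherin, lay at 102 and 92.3 CPM on plastic and at 13.1 and 12.9 CPM on ACP, a 7.48-fold fall (log2 -2.90 ± 0.24 SE, adjusted p = 0.000858), and at 7.33 to 12.8 CPM with androgen. PMEPA1, a TGF-beta-induced membrane protein that dampens TGF-beta signalling, lay at 115 and 178 CPM on plastic and at 21.5 and 23.8 CPM on ACP (log2 -2.69 ± 0.23 SE, adjusted p = 0.000858), and at 16.4 to 17.7 CPM with androgen. In both genes the 5 ACP libraries lay far below the 2 plastic libraries. The androgen libraries all lay below both plastic libraries for 185 of the 190 genes called lower. UPP1, uridine phosphorylase, fell from 963 and 1102 CPM to 314 and 278 CPM (log2 -1.80 ± 0.19 SE, adjusted p = 0.00379), but lay at 689 to 769 CPM with androgen, between the other groups. C7orf57, of no known role, fell from 12.04 and 14.7 CPM to 3.16 and 2.79 CPM (adjusted p = 0.00415).

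Several other named falls were of matrix or secreted products. TNC, the matrix glycoprotein tenascin C, fell from 226 and 196 CPM to 37.3 and 31.5 CPM (log2 -2.62 ± 0.36 SE, adjusted p = 0.00811). THBS1, thrombospondin 1, fell from 148 and 220 CPM to 46.4 and 42.5 CPM (adjusted p = 0.0229), and with androgen lay at 137, 53.5 and 144 CPM. FN1, fibronectin, fell from 154 and 332 CPM to 71.6 and 78.3 CPM (log2 -1.70, and -1.04 without plastic replicate 2), and VIM, the intermediate filament vimentin, from 211 and 177 CPM to 101 and 93.3 CPM. FN1, VIM and COL3A1 were the lower calls and TWIST1 the higher call among 15 mesenchymal genes (median log2 -0.49). The lower calls were 20% of that list, beside 1.33% of all genes tested. The cytokine IL11 fell from 6.04 and 4.92 CPM to 1.58 and 0.824 CPM (log2 -2.16, and -2.75 to -1.79 when each compared library was left out). The neurotensin receptor NTSR1 fell from 17.5 and 14.9 CPM to 3.72 and 3.76 CPM (log2 -2.12 ± 0.38 SE, adjusted p = 0.0172). Among 16 TGF-beta and BMP targets, PMEPA1 and COL4A1 were lower (12.5%), ID1 and ID3 were higher (12.5%), and the median log2 was -0.57. HSPA5, the main chaperone of the endoplasmic reticulum, fell from 3933 and 3305 CPM to 1316 and 1253 CPM (log2 -1.49 ± 0.24 SE, adjusted p = 0.0114). HYOU1 was the other call among 18 folding genes (11.1% lower, median log2 -0.29).

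The bone and mineral lists are short beside a share of 4.2% called over all genes tested. For these and the other lists of this paragraph, 0 calls therefore say little. None of 23 calcium and phosphate handling genes tested was called, with a median log2 of -0.14 and single values from -2.11 to 0.82. Of 24 bone matrix and osteomimicry genes, 14 passed the filter, and the 2 called, COL1A2 and SPOCK1, were lower. They were 14.3% of the 14 tested, beside 1.33% of all genes tested called lower. SPP1, which encodes the bone sialoprotein osteopontin, had 5 and 4 reads on plastic and 0 on ACP, and was too low to test. None of 7 osteoblast and osteoclast markers tested was called. None of 22 cholesterol synthesis genes, 12 fatty acid synthesis genes, 22 ATF4 and amino acid genes, 12 heat shock genes, 12 laminin and basement membrane genes or 16 matrix protease and inhibitor genes passed the threshold either. In simulated counts of this comparison, edgeR recovered 97 of 200 genes changed by 1 on the log2 scale (48.5%) and 196 of 200 changed by 2 (98%). In the same runs it called 8 and 10 unchanged genes. The changed genes averaged at least 1 CPM, so these shares do not cover list members below that level.

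Of 20 mitosis genes, 4 (20%) were called higher, beside 2.87% of all genes tested, 0 lower and 16 did not pass. The median log2 was 0.61. CDK1, the kinase that drives entry into mitosis, went from 35.2 and 33.0 CPM to 65.3 and 92.0 CPM (log2 1.20 ± 0.24 SE, adjusted p = 0.0245), and CCNB2, NUSAP1 and KIF20A were the other calls. Of 20 DNA replication genes, RRM2 and TYMS (10%) were higher, with a median log2 of 0.21. The cyclin-dependent kinase inhibitor CDKN1C was the only call among 14 genes of p53 and cell cycle arrest, from 6.86 and 7.89 CPM to 17.1 and 15.4 CPM.

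Ribosomal protein genes gave the most calls of any list, but theirs was also the list with the most genes tested. Of 86 cytosolic ribosomal protein genes tested, 16 (18.6%) were higher and 0 lower (median log2 0.74). Of 26 nuclear genes of the respiratory chain, 11 (42.3%) were higher and 0 lower (median log2 0.83). Over all genes tested, 2.87% were called higher. RPS10 went from 94.7 and 97.4 CPM to 346 and 389 CPM (log2 1.94 ± 0.24 SE, adjusted p = 0.00568) and lay at 530 to 833 CPM with androgen. COX7B, a subunit of cytochrome oxidase, went from 32.0 and 35.2 CPM to 91.4 and 101 CPM (log2 1.51 ± 0.22 SE, adjusted p = 0.0101). Several ribosomal protein genes have many processed copies in the genome, so their read counts are uncertain.

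Transcript length moved with these calls. Lengths were found for 13970 of the tested genes (97.7%). With these genes in 5 equal groups by longest annotated transcript, the median log2 was 0.33 in the shortest group (up to 2090 bases) and -0.13 in the longest. The share called higher was 7.77% in the shortest group and 0.859% in the longest, and the share called lower was 0.967% and 1.57%. The median longest transcript was 1951 bases for genes called higher, 3921 for genes called lower and 3576 for all tested. With offsets for GC content and length, a setting added after seeing the data, 741 genes passed, 407 higher and 334 lower, of which 494 were among the 600. The share of higher calls was then 54.9% in place of 68.3%. The median of ribosomal protein genes dropped to 0.41 with 20 calls higher, that of respiratory chain genes to 0.36 with 8 and that of squamous genes to 1.17 with 5, and that of EGF receptor genes was -0.80 with 5 called lower. The part of length or RNA quality in the calls was not tested further.

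**Figure D4:**
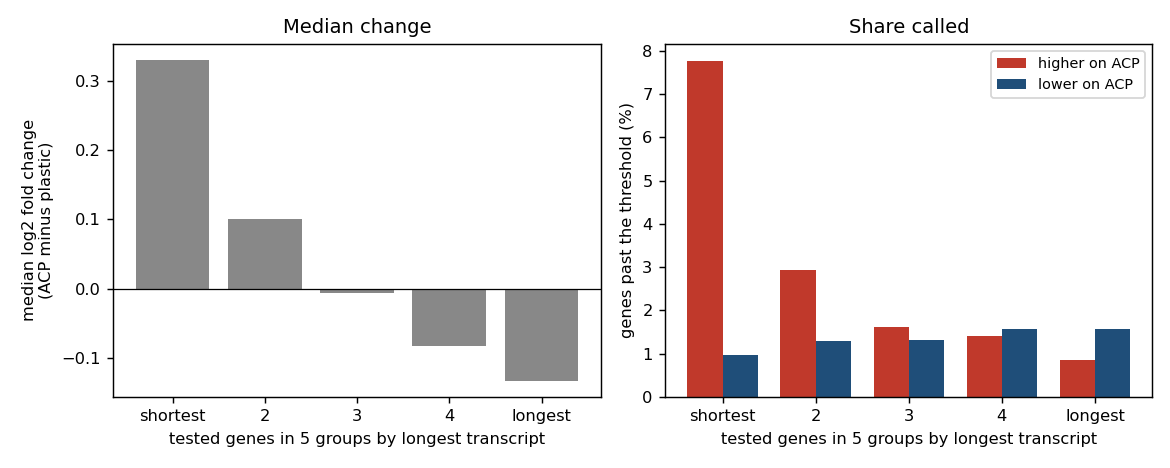
Median log2 fold change of ACP over plastic (left) and share of genes past the threshold in each direction (right) for 5 equal groups of the tested genes ordered by longest annotated transcript. The median runs from 0.33 in the shortest group to -0.13 in the longest, and the share called higher from 7.77% to 0.859%.

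Among RNAs without a poly(A) tail, which poly(A) selection should remove, 7 of 65 tested (10.8%) were called, all higher on ACP, beside 2.87% of all genes tested. The other 58 did not pass, and the median log2 was 1.72. RMRP, the RNA of RNase MRP, had 0.169 and 0.529 CPM on plastic and 69.7 and 74.3 CPM on ACP (log2 7.66, and 7.075 to 8.70 when each compared library was left out), but 115, 4.33 and 3.76 CPM with androgen. RPPH1, the RNA of RNase P, showed the same order, with 0.193 and 0.322 CPM on plastic, 115 and 103 CPM on ACP, and 194, 3.61 and 2.59 CPM with androgen. For both, 1 androgen library was high and the other 2 were low. RBMXL2, an intronless gene and the largest rise by the naming rule, had the same split, with 0.193 and 0.253 CPM on plastic, 10.4 and 10.0 CPM on ACP, and 13.1, 0.999 and 0.919 CPM with androgen. The part of poly(A) selection in these values was not tested. Leaving these RNAs out before scaling gave 606 calls.

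Some of the falls were of markers of liver and fibroblasts and of CD74. Of 16 liver markers, 13 passed the filter. Of these, 9 (69.2%) were called lower, beside 1.33% of all genes tested, and 0 higher. The summed level of the 16 was 27.5 and 25.7 CPM on plastic, 3.1 and 4.44 CPM on ACP and 1.65 to 1.8 CPM with androgen. ALB, albumin, had 220 and 261 reads on plastic and 2 and 8 reads on ACP (log2 -4.84 ± 0.76 SE, adjusted p = 0.0111, with a log2 of -3.95 without ACP replicate 1 and -6.41 without ACP replicate 2). FGG, a fibrinogen chain, had 78 and 82 reads on plastic and 0 on ACP, at least 33.9-fold lower, and the apolipoprotein APOA1 had 115 and 75 reads against 0, at least 40.3-fold lower, both against a floor of 3 counts over the pair of libraries. COL3A1, a fibroblast collagen, had 105 and 53 reads on plastic and 0 and 1 on ACP, a ratio of 101 with an exact 95% interval of 17.8 to 4000 (log2 -5.24 without ACP replicate 1 and -8.78 without ACP replicate 2). Floors and intervals cover counting error only. CD74, the invariant chain of antigen-presenting cells, fell from 15.3 and 12.9 CPM to 1.61 and 1.01 CPM (log2 -3.40 ± 0.37 SE, adjusted p = 0.00379), while CD14, a monocyte receptor and the other call among 5 immune cell markers tested, went up from 2.34 and 3.17 CPM to 7.44 and 7.60 CPM (adjusted p = 0.0194). APOE, an apolipoprotein, fell from 11.2 and 10.3 CPM to 3.04 and 1.69 CPM. Summed marker levels on plastic and on ACP were 53.4 to 55.4 and 44.2 to 47.4 CPM for fibroblasts, 116 to 120 and 80.5 to 90.4 CPM for immune cells, 41.4 to 44.5 and 24.3 to 26.2 CPM for brain, 2.05 to 2.97 and 1.36 to 2.29 CPM for endothelium, 4.76 to 5.54 and 8.37 to 8.7 CPM for skeletal muscle, where TNNT3 and TNNI2 were called higher, and 28.5 to 31.7 and 32.3 to 36.4 CPM for osteoblasts and osteoclasts. Markers of prostate cancer lines summed to 27.4 and 77.2 CPM on plastic and to 32.9 and 47.3 CPM on ACP, and 0 of 11 tested were called. A few markers of those lines followed the replicate number and not the surface. NPY had 0 and 93 reads on plastic, 0 and 64 on ACP and 0, 10 and 13 with androgen. TRPM8 had 1 and 39, 2 and 43, and 2, 14 and 14, and KLK2 and ERG were also lowest in replicate 1 of each group. Other markers did not follow the number: KLK3 had 290 and 754 reads on plastic and 250 and 122 on ACP, and FOLH1 169 and 481, then 271 and 123. The part of other cells' RNA in the remaining calls was not tested.

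The same transcripts marked the plastic control libraries of the other lines. In the 6 plastic control libraries of LNCaP, VCaP and MDAPCa2a, FGG lay at 1.35 to 2.93 CPM (scaled over all 34 libraries), and in their other groups at 0 to 0.0319 CPM. CD74 lay at 4.51 to 10.6 CPM against 0 to 4.67 CPM. Of the 190 genes lower on ACP in RWPE, 75 (39.5%) had both plastic control libraries above every other library of the line in 2 or more of the other 3 lines, beside 7.96% of all genes tested, and for 35 (18.4%) this held in all 3 lines, beside 1.73%. Of the 410 genes higher on ACP, 70 (17.1%) had the plastic control libraries below all others in 2 or more lines, beside 2.4% of all genes tested. Without genes of either kind, 338 calls were left, 242 higher and 96 lower. CDH4, PMEPA1, C7orf57, FOSB and THBS1 were not set apart in the plastic control of any other line, DUSP6, TNC, IL11 and NTSR1 were in 1 line, UPP1, APOE and HSPA5 in 2 and CD74 in 3. C7orf57 lay at 0.0887 CPM or less in the plastic control libraries of the other lines and at 0.214 CPM or less in their other groups. For C7orf57 this therefore says little. Of the rises, RPS10 and RPS21 had the plastic control below all other libraries in 3 lines, RBMXL2, RPPH1, RMRP and MT1F in 2, and PI3, VAV3, MYEOV2, LOC100506100, B2M, ID1, ID3 and COX7B in 1. C3 stood the other way, with the plastic control above all others in 3 lines, as did BIRC3 and CXCL14 in 1 line each. ID3 also had the plastic control above all others in 1 line, besides the line where it lay below. CA9, S100A8, S100A9, SAA1, GJB2, GJB6 and KRT15 were set apart in none, but CA9, S100A8 and SAA1 were so low in the other lines, at 0.152, 0.0248 and 0.425 CPM or less in their plastic control libraries, that this says little. S100A9 was low there too, at 0.0496 to 0.695 CPM. In RWPE the surface and whatever sets the plastic control libraries apart cannot be told apart.

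**Figure D5:**
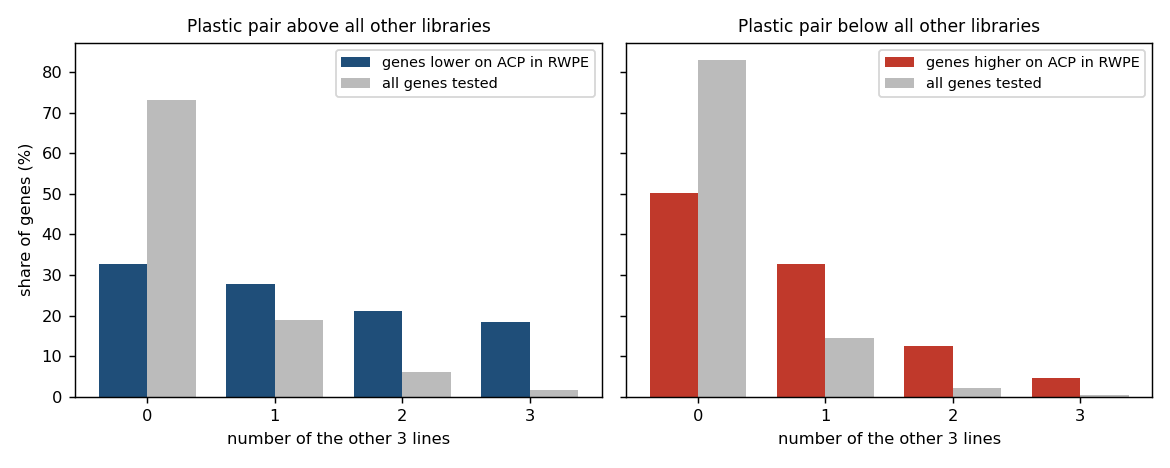
Share of genes by the number of other lines (LNCaP, VCaP, MDAPCa2a) in which both plastic control libraries lie above (left) or below (right) every other library of that line, for genes called in RWPE and for all genes tested. At 3 lines the blue bar stands at 18.4% beside 1.73% of all genes.

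LNCaP and VCaP were also grown on both surfaces in control medium, so the difference between lines in ACP against plastic control could be tested for 17313 genes in a fit of all 34 libraries. Of these, 21 (0.121%) differed between RWPE and LNCaP, 20 (0.116%) with a more positive and 1 (0.00578%) with a more negative log2 in RWPE, and 17 (0.0982%) between RWPE and VCaP, 13 (0.0751%) more positive and 4 (0.0231%) more negative. C3 differed most in p: its log2 fold change on ACP was -7.28 in LNCaP and -6.28 in VCaP, and the difference of RWPE from them was 9.24 ± 0.71 SE (adjusted p = 5.97e-08) and 8.24 ± 0.67 SE (adjusted p = 1.54e-07). C3 in LNCaP and VCaP was low, and set apart in their plastic control as FGG was, with plastic control libraries at 3.13 to 4.24 CPM and ACP libraries at 0 to 0.0495 CPM. PMEPA1 differed from VCaP by -2.50 ± 0.44 SE (adjusted p = 0.0143) and from LNCaP by -2.09 ± 0.44 SE (adjusted p = 0.0575). CDH4 differed from VCaP by -3.20 ± 0.67 SE (adjusted p = 0.0544). CA9 had group means of 0.0863 CPM or less in both lines, and its difference from LNCaP of 4.82 ± 1.19 SE had an adjusted p of 0.113 and that from VCaP of 8.15 ± 1.97 SE an adjusted p of 0.121. For S100A9, DUSP6 and UPP1 the difference passed the threshold against neither line.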

How the data were processed

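Per the labels' protocols, libraries came from column-purified RNA after poly(A) selection. The authors deposited 1 table of read counts per gene symbol, not normalized. STAR, HTSeq and hg19 are named in the submitters' processing notes, and their versions, the annotation and strandedness are not stated in the sources used here. The table holds 26336 genes, none of them from the mitochondrial genome. Left out were 12 genes with a count between 44562 and 44926 in a plastic column that lay at least 5 times above the other RWPE columns, the form of a spreadsheet date.

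The remaining counts were tested with edgeR 4.0.16 in R 4.3.3 (TMM factors, genes kept by filterByExpr at a minimum count of 10, quasi-likelihood F test, Benjamini-Hochberg adjusted p under 0.05) on the 7 RWPE libraries in 3 groups, with 4 residual degrees of freedom. SE is the log2 fold change over the square root of F. The difference between lines was a contrast in a fit of all 34 libraries. Log2 fold changes use edgeR's prior count.

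The members and the 43 gene lists were chosen with earlier results of these data known. Named were the 12 largest rises and falls by log2 among called genes whose higher group averaged 5 CPM or more and whose libraries did not overlap, the 6 lowest p in each direction, genes held in every leave-one-out fit, 3 called members of a list per direction, up to 4 rises and 2 falls of RNAs without poly(A) tails, and 7 fixed genes. Further list members and the pancreas and liver genes were named after their values were seen.

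Lengths and GC content came from GENCODE v29 (GRCh38), which is not the authors' build, and served only for offsets from lowess trends (span 0.3) and for the grouping by length. The steps were tested on simulated counts (200 changed genes, 14042 genes for a log2 change of 1 and 14074 for 2). Alternatives were RLE factors, DESeq2 1.42.0, no filter, a replicate block, other sets of libraries and leaving out each library. Floors of 3 counts and the exact 95% interval cover counting error only.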

Additional observations from a re-analysis of the deposited data

Results flagged for a closer look

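The difference between ACP and plastic control differed between lines, by the interaction test in edgeR, for 6 genes named in RWPE. The plastic control libraries stood above all others in 3 other lines for C3 and in 2 for COL3A1, ALB and VIM, so for these the surface and whatever sets those libraries apart cannot be told apart. C3 differed by a log2 of 9.24 from LNCaP and 8.24 from VCaP, where it lay at 0.0495 CPM or less on ACP, and these were the calls held when each of the 8 compared libraries was left out. COL3A1 differed by -6.24 from LNCaP (adjusted p = 0.0343) and had 1 read in RWPE over both ACP libraries in control medium. CEL, a bile salt lipase, differed by 2.77 from LNCaP (adjusted p = 0.0211). PMEPA1 differed by -2.50 (adjusted p = 0.0143), ALB by -5.92 (adjusted p = 0.0128) and VIM by 4.06 (adjusted p = 0.0128) from VCaP. ALB in VCaP lay at 55.1 and 134 CPM on plastic and at 139 and 256 CPM on ACP, with the pair on ACP above the pair on plastic, the opposite order to RWPE. VIM in VCaP lay at 12.2 and 16.2 CPM on plastic and at 0.362 and 0.495 CPM on ACP.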

How the results depend on the processing

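The count of 600 calls was 554 with RLE factors, 595 with the date genes kept and 815 with all 34 libraries in the fit, of which 424 were among the 600. It was 1393 with DESeq2 (848 higher, 545 lower), 1256 with no filter on low counts, 4791 with the 4 compared libraries alone, which included all 600, and 338 without genes set apart in the plastic control of 2 or more other lines. Leaving out each compared library gave 1 to 97 calls. The cause was not tested. With a replicate block the count was 2765. The deviations of same-numbered plastic and ACP libraries from their group means correlated at -0.077 over all genes tested, and the labels tie no number to a shared batch, so the numbers were not taken as pairs. A few transcripts, such as NPY and TRPM8, did follow the number in all 3 groups, while KLK3 and FOLH1 did not. At an unadjusted p under 0.05, 3273 genes passed.

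The count of 21 genes that differed from LNCaP was 23 with RLE factors, 26 with a replicate block, 100 with no filter and 118 with DESeq2, and the 17 that differed from VCaP became 15, 16, 84 and 85. Leaving out each of the 8 libraries gave 1 to 38 and 1 to 99 genes. Leaving out libraries moved the difference of VIM from LNCaP over -0.94 to 0.40, turning it without LNCaP ACP replicate 2, and that of COL3A1 from VCaP over -3.96 to 2.49, turning it without VCaP ACP replicate 2. Neither difference had passed the threshold. For the single genes named, leaving out a library often ended the call, with 1 library then left in a group. Other settings ended the call in 38 cases and kept it, or kept it absent, in 899. With 2 libraries a group, precision is set by the spread between these libraries and not by depth.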

Other observations

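Apart from CEL, the pancreatic transcripts of plastic replicate 1, a member of the comparison, had no counterpart in the second plastic library. Of 11 pancreas markers, 10 were detected in plastic replicate 1, and only CEL was detected in the other 6 RWPE libraries. CEL had 724 and 604 reads on plastic and 1536 and 926 on ACP. SNORD97, a small nucleolar RNA, had 0 reads in both plastic libraries and 38 and 24 on ACP, at least 32.5-fold higher against a floor of 3 counts over the pair. GC, the vitamin D-binding protein of liver and plasma, had 91 and 105 reads on plastic and 0 on ACP, at least 41.6-fold lower against the same floor.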
